A study of Drosophila melanogaster with 21 samples.

Results

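In Drosophila S2 cells, 61 of the 17737 genes listed per library lay silent in control cells and were read in every library of Ush-depleted cells. U-shaped (Ush) is a zinc finger protein that binds GATA transcription factors and restrains blood cell differentiation in the fly. The 61 genes were selected on their normalised counts in the first of 2 tables: each dsEGFP library was at most 3, each dsUsh library was at least 20 and each dsMi-2 library was below 20. Genes whose names mark cytochromes P450, glutathione transferases, digestive enzymes, lysozymes or non-coding RNAs were left out by name, which removed 8 more genes that met the limits. The levels in dsUsh, dsMi-2 and dsEGFP libraries therefore chose the genes, and they are described here with no test.

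S2 cells are a hemocyte-derived cell line, and by the study's methods all transfected cells stably carried the Cas9 nuclease, which the controls share. In the first table, dsUsh cells received double-stranded RNA against all Ush isoforms, dsMi-2 cells received double-stranded RNA against the nucleosome remodeller dMi-2, and dsEGFP cells received a control double-stranded RNA against EGFP, a sequence the fly genome lacks. In the second table, dsUsh-B cells, depleted of the Ush-B isoform alone, stand beside a dsEGFP control of their own. RNA was isolated 4 days after transfection, with 3 libraries per group in the first table and 4 per group in the Ush-B table, and the 4 ChIP-seq libraries were not analysed here.

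A gene that is silent in a cultured cell is often active in another tissue of the animal, and cofactors such as Ush recruit chromatin complexes that can keep such genes off. dMi-2 is the ATPase of the Drosophila NuRD complex, which combines nucleosome remodelling with histone deacetylation. For these 61 genes the selection itself fixed that dsMi-2 libraries stayed low, so the comparison of the 2 depletions is a description.

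Per library, the first table held 21366051 to 26101822 reads on genes and the Ush-B table held 46181614 to 59387417. The Mi-2 transcript was at 1567.3, 1124.9 and 1152.2 normalised counts in dsMi-2 libraries, against 5246.9, 5417.4 and 4272.5 in dsEGFP libraries (log2 fold change -1.97, limma adjusted p = 6.93e-05). The ush transcript was at 4089.1, 3810.3 and 3341.3 in dsUsh libraries, against 5275.9, 4789.2 and 3929.1 in dsEGFP libraries. The groups overlapped, and the log2 fold change of -0.31 did not pass the threshold (limma adjusted p = 0.0978), except with the replicate number as a block (adjusted p = 0.00702). In the Ush-B table, where the counts take all ush isoforms together, ush was at 9992.7, 9283.8, 6463.9 and 7660.6 in dsUsh-B libraries, against 9699.6, 10368.9, 9579.9 and 6410.9 in their dsEGFP libraries (log2 fold change -0.11, limma adjusted p = 0.927). Each dsUsh library was lower in ush than the dsEGFP library of the same number. The dsUsh and dsUsh-B libraries are named by their labels. Without the replicate block the ush RNA did not set dsUsh libraries apart, and it did not set dsUsh-B libraries apart. The study reports loss of Ush protein, and of the Ush-B form, on Western blots after these treatments. In S2 cell bulk RNA, more cells that read a gene and more RNA per cell cannot be told apart.

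Reads on the 61 genes together made up 358, 1014 and 499 RPM in dsUsh libraries 1, 2 and 3, where RPM scales the reads on genes of a library to 1000000. They made up 6.02, 3.91 and 4.41 RPM in dsMi-2 libraries, against 2.58, 1.39 and 1.71 RPM in dsEGFP libraries. In dsUsh libraries every gene had reads, whereas 21 to 28 of the 61 had none in a dsMi-2 library and 22 to 36 had none in a dsEGFP library. In dsEGFP cells, 7 genes had 0 reads over all 3 libraries, 44 had 1 to 3 reads and 10 had more. A library with 0 reads on a gene allows up to 3 reads. The 61 genes were 0.791% of the 7714 genes that were silent in dsEGFP cells.

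**Figure D1:**
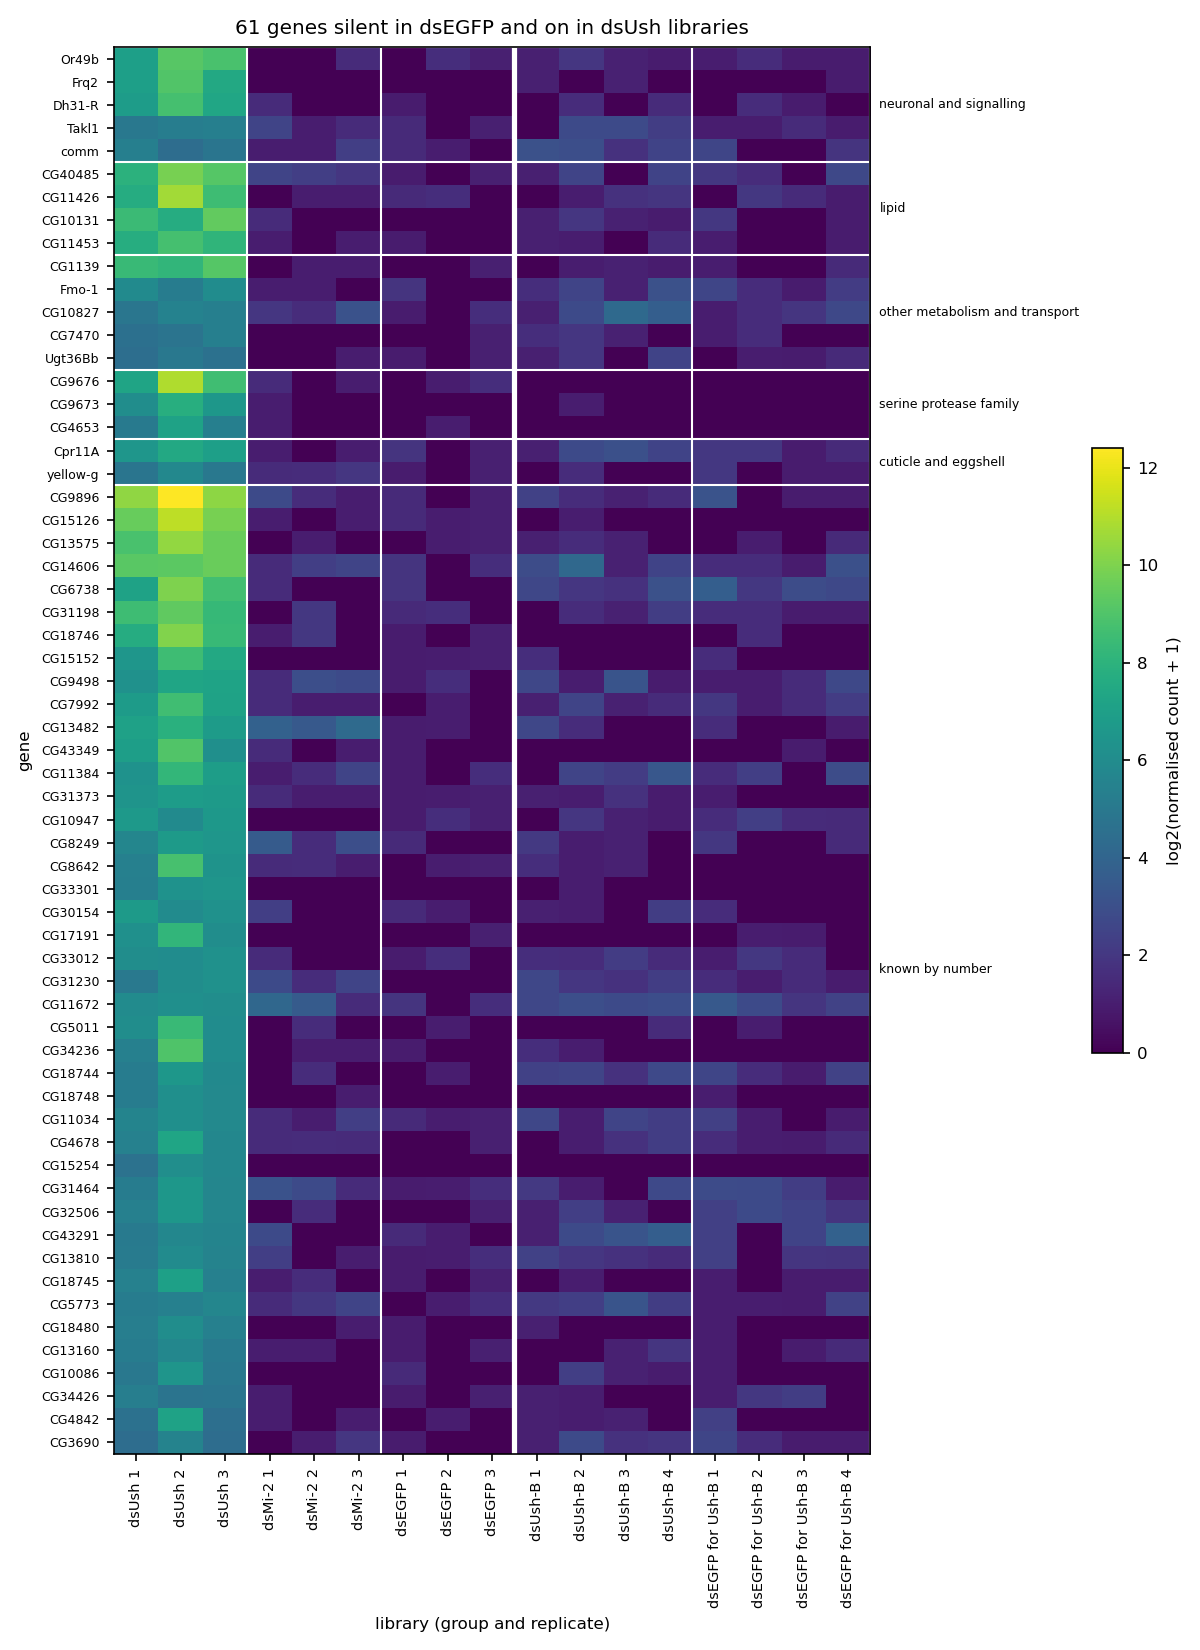
Normalised counts of the 61 genes on a log2(count + 1) colour scale, with genes as rows grouped by role and libraries as columns (dsUsh, dsMi-2, dsEGFP, then the separate Ush-B table). The dsUsh columns are bright because they chose the genes, and no gene reaches 20 in any of the 8 libraries of the Ush-B table.

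**Figure D2:**
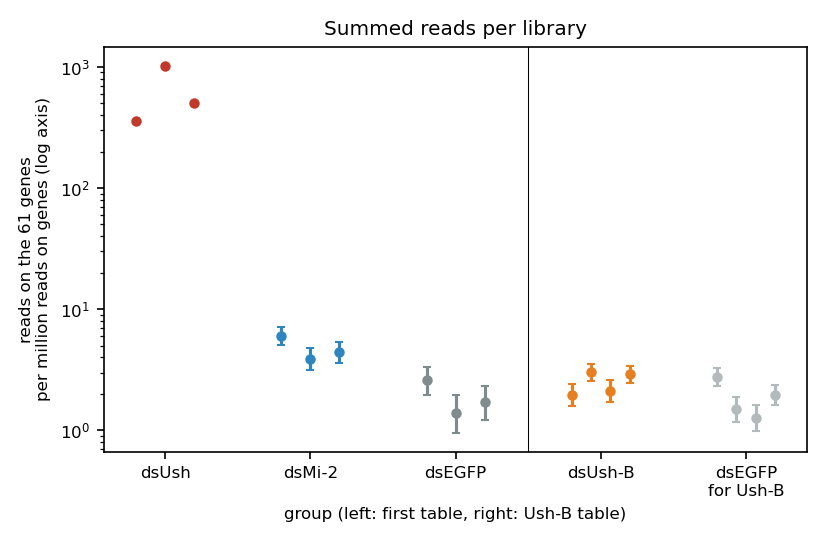
Reads on the 61 genes in RPM, on a log axis, with 1 point per library and exact 95% binomial intervals that cover counting error only. The dsUsh points lie at 358 to 1014 RPM, and every other library lies between 1.27 and 6.02.

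All 61 genes were found in the RefSeq gene table (Release 6 plus ISO1 MT) as protein-coding genes. The symbols or RefSeq names of 19 give a role that is used here, and the other 42, whose symbols in the files are numbers, are described without one. RefSeq names 1 of these, CG32506, tbc. Among the 5 genes with neuronal or signalling roles, Or49b, an odorant receptor of olfactory neurons, was at 128.5, 578.4 and 459.9 normalised counts in dsUsh libraries, at 0, 0 and 1.9 in dsMi-2 libraries and at 0, 2.1 and 1.1 in dsEGFP libraries. Its RPM, pooled over libraries, was 355-fold those of dsEGFP cells (95% counting interval 121 to 1724). This and the later pooled ratios come from the libraries that chose the genes. They and their intervals describe the counts and make no allowance for that choice. Frq2, a frequenin that senses calcium at nerve terminals, was at 127.6, 526.1 and 178.2 in dsUsh libraries and had no read in any dsMi-2 or dsEGFP library. Against a floor of 3 counts over the group, this is at least 254-fold higher than in dsEGFP cells. Both genes were highest in dsUsh replicate 2.

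Of the other neuronal and signalling genes, Dh31-R, the receptor for the diuretic hormone 31 that acts on the Malpighian tubule, was at 114.6, 436.4 and 161.1 in dsUsh libraries and at most at 1.9 in the other 6 libraries of the table. Takl1, a kinase related to Tak1, was between 30.4 and 40.6 in dsUsh libraries. Its gene overlaps Syp, which averaged 1619 in dsUsh, 1561 in dsMi-2 and 1514 in dsEGFP libraries. comm, which keeps the guidance receptor Robo off growth cones at the midline of the embryonic nerve cord, was at 39.9, 20.5 and 27.7 and lay close to the lower limit.

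The 4 lipid genes had medians from 279 to 559 in dsUsh libraries. CG40485, which RefSeq also lists as a farnesol dehydrogenase (FOHSDR), was at 250, 944.3 and 559.2 in dsUsh libraries, at 4.8, 4 and 2.9 in dsMi-2 libraries and at 0.9, 0 and 1.1 in dsEGFP libraries. CG11426, listed as a lipid phosphate phosphatase (LPP), was at 205.8, 1636.4 and 370.3 in dsUsh libraries and at most at 2.1 in the others of the table. CG10131, now named Had2 for a hydroxyacyl-CoA dehydrogenase, differed from these in its order: it was lowest in dsUsh replicate 2, with 353.4, 204.5 and 678.7. It had no read in dsEGFP libraries, and the pooled ratio was at least 399-fold. CG11453, now Acsx4 of the acyl-CoA synthetase family, lay at 212.7, 428.4 and 278.5 in dsUsh libraries and at or under 1 in dsMi-2 and dsEGFP libraries.

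The 5 genes of other metabolism and transport included CG1139, now acs, which encodes an amino acid transporter. It was at 336, 286.4 and 564.5 in dsUsh libraries, at 0, 1 and 1 in dsMi-2 libraries and at 0, 0 and 1.1 in dsEGFP libraries. Fmo-1, a flavin-dependent monooxygenase, was at 60.8, 36.4 and 64 in dsUsh libraries, at 1, 1 and 0 in dsMi-2 libraries and at 2.7, 0 and 0 in dsEGFP libraries. Neither was highest in dsUsh replicate 2. CG10827, now Alp5 for an alkaline phosphatase, CG7470, now P5CS for a step of proline synthesis, and the UDP-glycosyltransferase gene Ugt36Bb stayed below 45 in every dsUsh library.

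The 3 genes of the serine protease family are neighbours on the X chromosome. CG9676 (SP99) was at 151.9, 1919.4 and 393.8 in dsUsh libraries, at 1.9, 0 and 1 in dsMi-2 libraries and at 0, 1 and 2.1 in dsEGFP libraries. CG9673 (SPH81), a protease homologue, was at 66.9, 219.3 and 95 in dsUsh libraries, had 1 normalised count in a single dsMi-2 library and no read in dsEGFP libraries (at least 117-fold). CG4653 (SPH179) was at 33, 142 and 39.5 in dsUsh libraries. All of them were highest in dsUsh replicate 2, and CG9676 had the widest spread of the 61 genes, with a highest dsUsh value 12.6 times its lowest.

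Of the pair of cuticle and eggshell genes, Cpr11A, a cuticle protein gene, was at 92, 178.4 and 129.1 in dsUsh libraries, at 1, 0 and 1 in dsMi-2 libraries and at 2.7, 0 and 1.1 in dsEGFP libraries. yellow-g, which acts in the eggshell, was at 26.9, 54.5 and 29.9 in dsUsh libraries, at 1.9, 2 and 2.9 in dsMi-2 libraries and at 0.9, 0 and 1.1 in dsEGFP libraries. For yellow-g the dsMi-2 libraries all lay above the dsEGFP libraries, though by few counts.

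The most reads fell on genes known by number. Read counts are not corrected for gene length, so this order is one of reads and not of transcript numbers. CG9896 was at 1303.1, 5441 and 1241.1 in dsUsh libraries, at 5.8, 2 and 1 in dsMi-2 libraries and at 1.8, 0 and 1.1 in dsEGFP libraries, a pooled ratio to dsEGFP of 2432 (counting interval 832 to 11796). CG15126 was at 743.2, 2283 and 924.2 in dsUsh libraries, at 1, 0 and 1 in dsMi-2 libraries and at 1.8, 1 and 1.1 in dsEGFP libraries. CG13575 was at 461, 1336.4 and 757.7 in dsUsh libraries, at 0, 1 and 0 in dsMi-2 libraries and at 0, 1 and 1.1 in dsEGFP libraries. Together these 3 genes held 31.9% of the reads on the 61 genes in dsUsh cells.

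CG14606 was the most even of the highly read genes, with 599, 631.8 and 759.8 in dsUsh libraries, against 1.9, 4 and 4.9 in dsMi-2 and 2.7, 0 and 2.1 in dsEGFP libraries. CG6738 was at 140.6, 1019.3 and 403.4 in dsUsh libraries, at 1.9, 0 and 0 in dsMi-2 libraries and at 2.7, 0 and 0 in dsEGFP libraries. CG31198 was at 372.5, 661.4 and 322.3 in dsUsh libraries, at 0, 3 and 0 in dsMi-2 libraries and at 1.8, 2.1 and 0 in dsEGFP libraries. In all of these the dsUsh libraries lay far above every other library, as the selection requires.

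**Figure D3:**
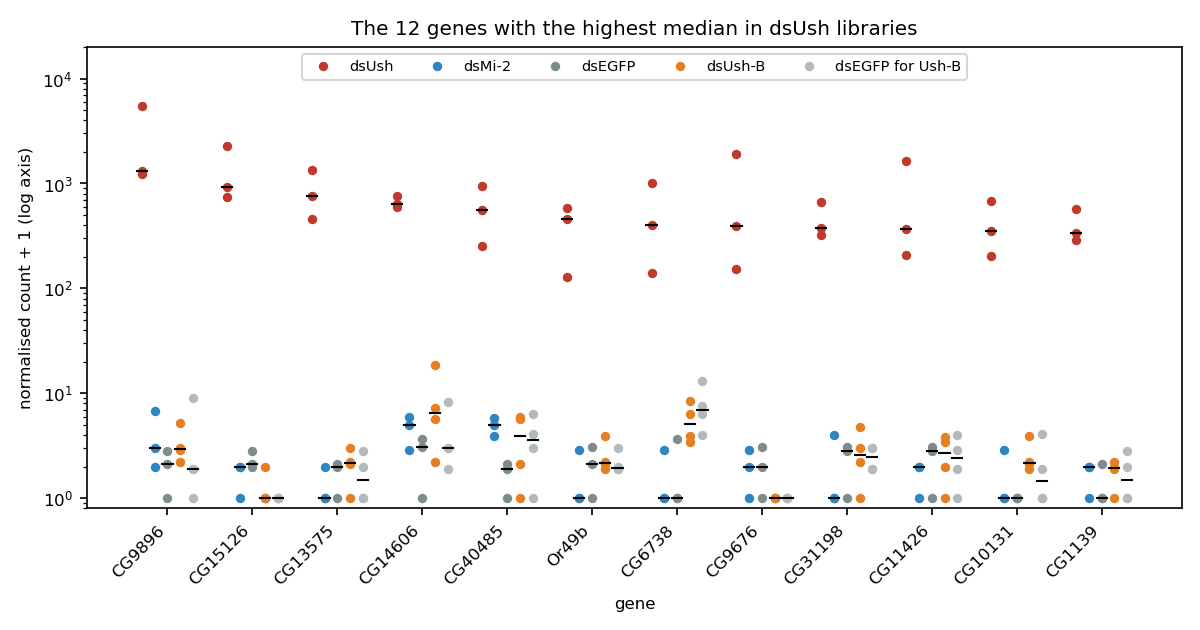
Normalised count + 1 per library, on a log axis, of the 12 genes with the highest dsUsh median, with points for libraries and bars for group medians, the Ush-B table being normalised apart from the first. The dsUsh points spread over up to 12.6-fold for CG9676, and for CG14606 all 3 lie between 599 and 760 normalised counts.

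Over the 61 genes the dsUsh median ranged from 20.8 to 1303, with a middle value of 73.8, and it was at least 300 for 13 genes and below 50 for 17. Close to the limit, 6 genes had a lowest dsUsh value from 20 up to 25, among them CG3690 (20.8, 46.6 and 20.3), comm (39.9, 20.5 and 27.7) and Ugt36Bb (21.7, 30.7 and 23.5). On the other side, 4 genes had a lowest dsUsh value from 15 to below 20, among them Tsp42Ec (23.4, 25 and 19.2), ham (18.2, 18.2 and 27.7) and CG11407 (19.1, 56.8 and 17.1).

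The size of the response differed between dsUsh replicates. Replicate 2 was the highest of the 3 for 47 of the 61 genes (77.0%), replicate 3 for 10 and replicate 1 for 4. Among all genes tested, replicate 2 was the highest for 43.0%, and among the other genes past the threshold and higher in dsUsh cells it was the highest for 61.9%. The ratio of replicate 2 to the mean of replicates 1 and 3 had a median of 1.90 and ranged from 0.396 to 9.64, with CG9676, CG8642 and CG34236 among the most uneven genes (447.7 in replicate 2 against 41.7 and 81.1 for CG8642, and 514.8 against 41.7 and 65.1 for CG34236). Without dsUsh replicate 2 the same limits gave 66 genes, as fewer libraries can only add genes.

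In dsMi-2 libraries the selection capped the genes below 20, and most were far below. For 43 of the 61 genes every dsMi-2 library was at most 3, and 8 genes had no read in any of them. The mean over dsMi-2 libraries was at least 5 for 4 genes. CG13482 was at 138, 231.8 and 111 in dsUsh libraries, at 13.6, 9.9 and 18.5 in dsMi-2 libraries and at 0.9, 1 and 0 in dsEGFP libraries. It overlaps fz, a Wnt receptor gene that averaged 168 in dsUsh and 99.2 in dsMi-2 libraries, against 23.4 in dsEGFP libraries. CG8249 was at 10.7, 2 and 6.8 in dsMi-2 libraries and at 1.8, 0 and 0 in dsEGFP libraries. The 3 dsMi-2 libraries lay above all dsEGFP libraries for 6 of the 61 genes (9.84%), against 12.9% of all genes with a read, where no cap applied. In the reverse direction, only 3 genes (gnu, CG14628 and goe, named after their values were seen) were silent in dsEGFP, at least 20 in each dsMi-2 library and below 20 in each dsUsh library, without a removal by name. A single gene, CR44361, met the opposite limits for dsUsh, with at least 20 in each dsEGFP library and at most 3 in each dsUsh library. The dsMi-2 limit kept out 2 genes that met the count limits, CR46139, which its name would also have removed, and CG44013.

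Several of the 61 genes lay side by side. In gene order, 14 of them were next to another gene of the set, in 5 runs. On the right arm of chromosome 3, CG18745, CG18748, CG18746 and CG10086 followed each other, and CG18744 followed after CG2641. CG18746 was at 204.9, 1052.3 and 330.8 in dsUsh libraries, and the other 4 stayed between 29.9 and 133. CG2641, between them, was already read in dsEGFP cells, at 494.9, 436.4 and 549.6 in dsUsh libraries, 286.1, 294.4 and 184.2 in dsMi-2 libraries and 254.2, 140.6 and 146.1 in dsEGFP libraries. CG18747, on the other flank, missed the floor, with 12.2, 12.5 and 18.1 in dsUsh libraries and at most 1 elsewhere in the table.

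On the X chromosome, CG4678, CG9676, CG9673 and CG4653 formed a run, and the annotated span of CG4678 contains the other 3. The gene at the end of the run, CG9672 (SPH161), which CG4678 also overlaps, was not silent in control cells. It was at 9195.8, 107698 and 11051.4 in dsUsh libraries, at 25.2, 27.8 and 31.2 in dsMi-2 libraries and at 28, 41.7 and 37.3 in dsEGFP libraries. Like CG9676, it was highest in dsUsh replicate 2. CG4653 and CG4678 were below 0.5% of CG9672 in each dsUsh library. The sources used here do not state whether the counting used strand, and reads of overlapping genes cannot be told apart.

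**Figure D4:**
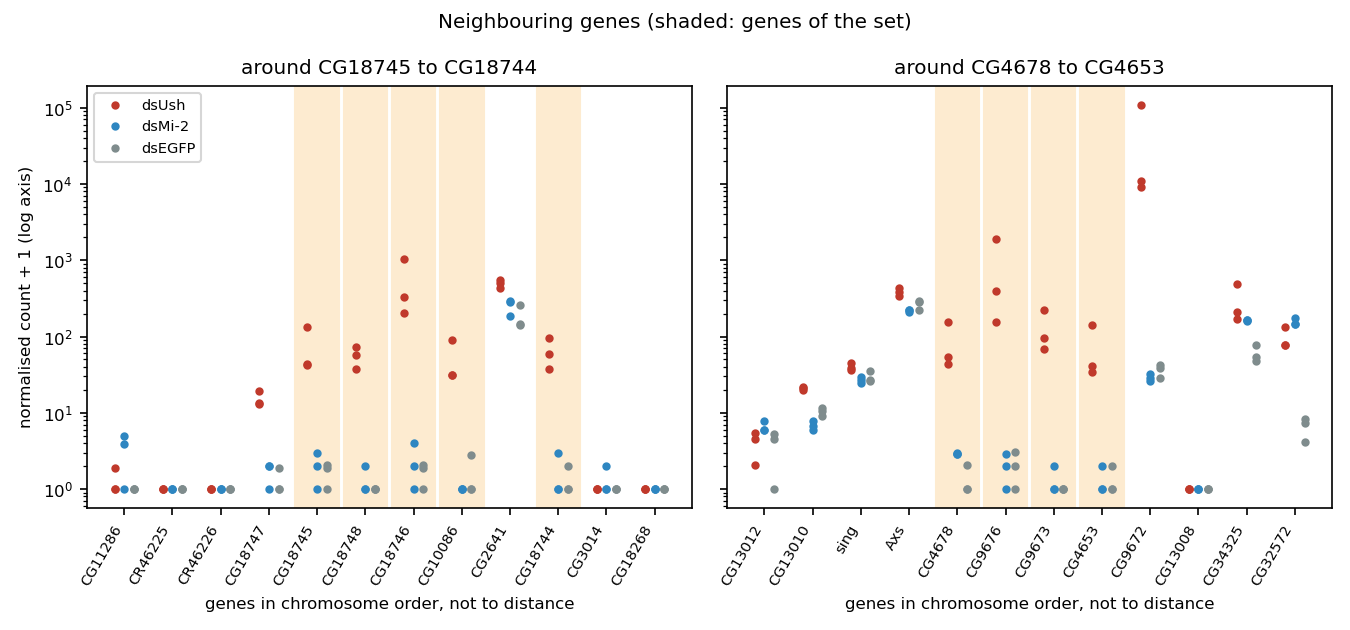
Normalised count + 1 per library, on a log axis, for genes in chromosome order around the runs on chromosome 3 (left panel) and on the X chromosome (right panel), with shading for genes of the set and 3 points per group. CG2641 and CG9672 stand unshaded because they were read in dsEGFP cells, and CG9672 reaches 107698 in dsUsh replicate 2.

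Genes beside the set moved too. The 61 genes had 103 neighbours that were not in the set, and 59 of these were silent in dsEGFP cells. Of the 34 neighbours with a dsEGFP mean of at least 5, which were read in control cells, 17 passed the threshold as higher in dsUsh cells (50%; limma adjusted p under 0.01). Of all other genes with that mean, 934 of 8629 did so (10.8%), and of all genes tested 12.3% were higher and 4.84% lower. The median log2 fold change of the 34 neighbours was 1.44, beside -0.04 for the other genes. With the replicate number as a block, 19 of them were higher (55.9%) and 1 lower, beside 16.0% higher among the other genes. After dMi-2 depletion 3 of the 34 were higher, beside 4.34% of all genes tested. With the replicate block 7 of the 34 were higher (20.6%) and 2 lower, beside 7.12% higher among the other genes with that mean.

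The strongest of these neighbours were Cyp9h1, a cytochrome P450 beside Or49b, and Ugt36Bc, a UDP-glycosyltransferase beside Ugt36Bb. Cyp9h1 was at 5261.2, 21703.9 and 10369.5 in dsUsh libraries, against 10.9, 13.5 and 7.5 in dsEGFP libraries (log2 fold change 9.87 ± 0.44 SE, limma adjusted p = 8.15e-07). Ugt36Bc was at 23663.2, 62443.3 and 30030.8 in dsUsh libraries, against 56.1, 41.7 and 33.1 in dsEGFP libraries (9.66 ± 0.34 SE, limma adjusted p = 3.51e-07). Ugt36Bb held 0.0917%, 0.0491% and 0.0782% of the Ugt36Bc level in dsUsh libraries 1, 2 and 3. These genes belong to 1 family, and a small share of misassigned reads was not tested for. Chitin synthase 2 (CS-2), beside CG7470, and CG3376, an acid sphingomyelinase by its RefSeq name, beside CG13575, rose likewise, to means of 5289 and 40880 in dsUsh libraries, against 11.4 and 829 in dsEGFP libraries.

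In all, 27 of the 61 genes lay next to or over a gene outside the set that was higher in dsUsh cells, and in 10 of these the highest neighbour had at least 10 times the reads: CG11384, CG11672, CG13575, CG31230, CG4653, CG4678, CG7470, Or49b, Ugt36Bb and yellow-g. Or49b was at 2.44%, 2.67% and 4.44% of the Cyp9h1 level in dsUsh libraries 1, 2 and 3, and yellow-g was at 2.54%, 2.93% and 2.99% of the level of CG32302, which it overlaps. Just below the cut of 10 lay CG10086 beside CG2641 (9.94 times) and CG6738 beside CG6733 (9.80 times). The part of such neighbours in the counts of these genes was not tested. The other 34 genes had no neighbour outside the set that passed the threshold as higher. For CG18746, CG18748, CG9673 and CG9676 this holds only because all their neighbours were genes of the set. CG9673 and CG9676 lie within CG4678, which also overlaps the strongly read CG9672. CG9896, CG15126 and Frq2 were also among the 34, and CG9896 overlaps only twi, which had no read in dsUsh libraries. Where the reads of the 34 genes arose was not tested either.

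**Figure D5:**
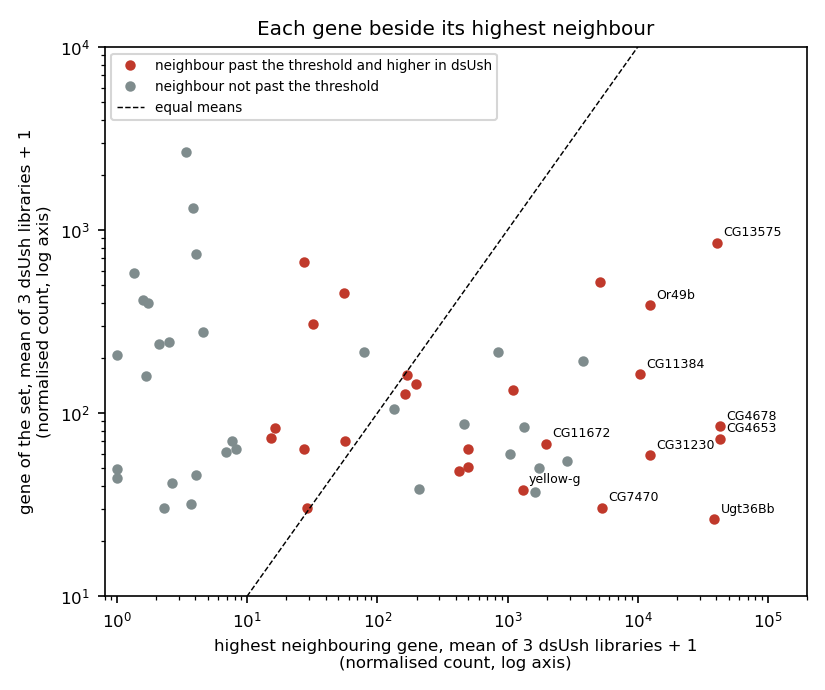
Mean normalised count + 1 in dsUsh libraries of each gene (y axis) against that of its highest adjoining or overlapping gene outside the set (x axis), both on log axes, with 1 point for each gene that has such a neighbour. Red points have a neighbour past the threshold and higher in dsUsh cells, and the 10 labelled genes lie at 10% or less of its level, as Ugt36Bb does beside Ugt36Bc at a mean of 38712.

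The tissues in which such genes are normally read were followed with 13 lists of marker genes, 219 in all. No listed gene met the selection limits. Of the listed genes 112 were silent in dsEGFP cells, and over all silent genes only 0.791% met the limits. A count of 0 among 112 therefore says little about these tissues. Over all genes tested after Ush depletion, the log2 fold change had a median of -0.01. The midgut list, without digestive enzymes, held 20 genes, of which 10 were tested. Of the 10 tested, 7 were higher (median 3.15, limma adjusted p under 0.01). The mean that admitted a gene to the test included the dsUsh libraries, so this share and those of the other lists lean towards higher genes. The listed genes that were not tested stayed at or below 4.5 in every dsUsh library. Members of the midgut list included GATAe, the endodermal GATA factor, and Ssk, mesh and Tsp2A of the smooth septate junction. Ssk was at 1681.7, 1351.2 and 1893.1 in dsUsh libraries and 79.5, 83.5 and 89.7 in dsMi-2 libraries, against 84.1, 72.9 and 54.4 in dsEGFP libraries. Tsp2A was high after both depletions, at 483.6, 503.4 and 497.3 in dsUsh libraries and 503.4, 712.2 and 650.2 in dsMi-2 libraries, against 25.3, 30.2 and 18.1 in dsEGFP libraries. The midgut gene mex1 came close to the limits, at 13, 14.8 and 24.5 in dsUsh libraries and at 1.8, 2.1 and 0 in dsEGFP libraries. It is among the 7 higher genes and reached the mean for the test only through the dsUsh libraries.

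The glia list had 4 of 5 tested genes higher (median 2.20). Of its 8 listed genes, repo, alrm and gcm had too few reads for a test, at most 3.4 in any dsUsh library. nrv2, which was higher, was already at 4237.2, 3738 and 3405.4 in dsEGFP libraries. The crystal cell and lamellocyte list had 2 of 6 higher (median 1.84), and the muscle list 3 of 19 (median 0.71), among them wupA, which encodes troponin I. wupA was at 64.2, 128.4 and 98.2 in dsUsh libraries, against 3.6, 1 and 2.1 in dsEGFP libraries, and missed the selection through dsEGFP replicate 1. Like mex1, wupA reached the mean for the test only through the dsUsh libraries. Fat body had 1 higher and 1 lower of 6 (median 0.79), neuron 1 higher of 9 (median -0.04) and testis 1 higher of 6 (median -0.33). No gene was higher for cuticle and epidermis (5 tested, median -0.75), eggshell and female germline (5, median 0.26), photoreceptor and chemosensory cells (5, median -0.72) or salivary gland and glue (2 tested, 1 lower, median 0.88), and no male accessory gland gene had enough reads for a test. Plasmatocyte markers, which S2 cells share with the main blood cell type, had 1 gene higher and 5 lower of 12 (median -1.74). Of 13 such markers listed, only NimC1 was silent in dsEGFP cells, at 1.8, 0 and 0. Of the 17 genes tested in the 4 lists with none higher, 2 were higher at an unadjusted p under 0.05, and the adjusted threshold was passed by 0 in edgeR and 1 in DESeq2. Or49b and Cpr11A met the selection limits without any listed chemosensory or cuticle marker past the threshold as higher in limma.

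With the replicate number as a block, 17.4% of all genes tested were higher and 1012 of 9132 lower. The midgut list then had 8 higher genes, glia 5, muscle 5, and crystal cell and lamellocyte 3, while 8 plasmatocyte, 2 testis, 2 photoreceptor and chemosensory and 1 neuron gene were lower. After dMi-2 depletion, where 4.34% of all genes tested were higher and 1.95% lower, the midgut list had 1 of 10 genes higher (median 0.67), glia 2 of 5, crystal cell and lamellocyte 2 of 6, muscle 2 of 19, plasmatocyte 4 of 12 with 1 lower, and fat body, testis and cuticle 1 each. Neuron, eggshell and salivary gland had no call, and photoreceptor and chemosensory cells had 1 lower gene. With the block the fat body list had 2 higher genes and the eggshell list 1.

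The Ush-B table is a separate experiment that played no part in the selection, and its libraries were sequenced more deeply. None of the 61 genes reached 20 normalised counts in any of its 8 libraries. The highest value was 17.8, and 26 genes were at most 3 in all 8 libraries, of which 3 had no read at all. The control libraries of this table were at most 3 for 35 of the 61 genes, and for the remaining 26 at least 1 control library was above it, up to 13.5 for CG43291. The tables were normalised separately, and a normalised count stands for a smaller share of the reads in the Ush-B table. Reads on the 61 genes made up 1.97, 3.03, 2.12 and 2.9 RPM in dsUsh-B libraries 1 to 4, against 2.77, 1.5, 1.27 and 1.97 RPM in their dsEGFP libraries, and the groups overlapped.

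The 5 genes with a mean of at least 5 in the Ush-B table were tested, and none passed the threshold (limma adjusted p under 0.05) or an unadjusted p under 0.05. Of all genes tested, 0.0104% were higher and 0% lower, with 684 of 9648 at an unadjusted p under 0.05, and edgeR called 0 genes and DESeq2 49 higher and 42 lower. CG10827 was at 1.1, 5.9, 17.8 and 12.2 in dsUsh-B libraries, against 1, 2, 2.8 and 5.4 in their dsEGFP libraries (log2 fold change 1.15 ± 0.70 SE, limma adjusted p = 0.778). CG14606 was at 6.3, 17.6, 1.2 and 4.7 in dsUsh-B libraries, against 2, 2, 0.9 and 7.2 (0.89 ± 0.70 SE, limma adjusted p = 0.830). The groups overlapped for both genes, and 1 or 2 dsUsh-B libraries carried the higher mean.

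CG43291 was at 1.1, 5.9, 8.3 and 12.2 in dsUsh-B libraries, against 4.1, 0, 4.7 and 13.5 in dsEGFP libraries (0.52 ± 0.86 SE, limma adjusted p = 0.925). In the first table it was at 33.9, 52.3 and 48 in dsUsh libraries, 5.8, 0 and 0 in dsMi-2 libraries and 1.8, 1 and 0 in dsEGFP libraries. CG11672 was at 5.3, 6.9, 5.9 and 6.6 in dsUsh-B libraries, against 10.2, 6, 2.8 and 4.5 in dsEGFP libraries (0.17 ± 0.39 SE, limma adjusted p = 0.948). Its values in the first table were 63.4, 71.6 and 66.2 in dsUsh libraries, 16.5, 10.9 and 1.9 in dsMi-2 libraries and 2.7, 0 and 2.1 in dsEGFP libraries, the smallest spread between dsUsh replicates of all 61 genes. CG6738 was at 5.3, 2.9, 2.4 and 7.5 in dsUsh-B libraries, against 12.2, 3, 6.5 and 5.4 in dsEGFP libraries (-0.46 ± 0.48 SE, limma adjusted p = 0.873). None of these 3 separated the groups.

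Without the filter on low values, 58 of the 61 genes could be fitted, and none passed the threshold in limma. At an unadjusted p under 0.05 there were 6 of 58 genes (10.3%), beside 6.27% of all 14297 genes fitted. Of these, CG32506 was lower in dsUsh-B libraries (log2 fold change -1.27), and CG31373, CG8642, CG31230, CG5773 and comm were higher. The 4 dsUsh-B libraries lay above all 4 controls for 1 gene, CG31230 (5.3, 2.9, 2.4 and 3.8 against 2, 1, 1.9 and 0.9), which is 1.64% of the 61 and near the 1.79% of all genes with a read. The mean was higher in dsUsh-B libraries for 44 of the 58 genes with a read (75.9%), beside 59.3% of the other genes that were at most 3 in each control and 50.8% of all genes with a read. Only 35 of the 61 genes were at most 3 in each control, so the 75.9% and the 59.3% come from unlike sets. All these genes share libraries and depth, and the difference in these shares was not tested. edgeR called none of the 5 genes with a mean of at least 5, and DESeq2 gave these 5 no adjusted p.

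The only gene past the threshold in the limma test of the Ush-B table was comm2, a relative of comm. In DESeq2 91 genes passed, and the study, which used DESeq2, likewise reports more genes than limma gave here. comm2 was at 215.4, 303.9, 179.6 and 230.4 in dsUsh-B libraries, against 46.8, 23.9, 19.6 and 36.9 in dsEGFP libraries (log2 fold change 2.88 ± 0.30 SE, limma adjusted p = 0.0492), and no gene passed in edgeR or with the replicate block. That block followed the replicate numbers, which did not match the most alike libraries for replicates 3 and 4. In the first table comm2 was at 1128.6, 1105.7 and 1128 in dsUsh libraries and 119.3, 42.8 and 235.9 in dsMi-2 libraries, against 18.1, 29.2 and 23.5 in dsEGFP libraries. comm itself was at 7.4, 6.9, 2.4 and 4.7 in dsUsh-B libraries, against 5.1, 0, 0 and 2.7 in dsEGFP libraries, a mean too low for the main test.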

How the data were processed

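RNA from S2 cells was isolated 4 days after transfection. The authors aligned single reads of a stranded mRNA kit with STAR, counted them per gene with featureCounts and divided them by a DESeq2 size factor per library, and these signal values were deposited as normalised counts. The labels name the builds dm3 and dm6 without saying which served the RNA-seq. Annotation and use of strand are not given in the sources used here. The labels number the replicates, and separate transfections are stated in the study's methods without a match to each library. The authors' own tables of comparisons hold fold changes, standard errors and p-values, and none was used.

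All values were whole multiples of 1 step per library (100%, tolerance 0.05), which gave back reads. The tests used limma 3.58.1 in R 4.3.3 on log2 of the normalised count plus 1, for genes with a mean of at least 5 over the table, two-sided, with Benjamini-Hochberg adjustment over all genes tested and thresholds of 0.01 (first table, 1 fit) and 0.05 (Ush-B table). Fold changes on that scale understate low genes. Alternatives changed pseudocount, filter, scaling, block, tool (edgeR 4.0.16, DESeq2 1.42.0), libraries and limits. In the first table, deviations of same-numbered libraries from their group means correlated at 0.239 to 0.569, so the numbers paired them.

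The genes, lists and tests were chosen with earlier results of these data known. Named with all values were the 12 genes with the highest dsUsh median, the 2 highest of each role group, the 5 highest in the Ush-B table, genes past its threshold and up to 3 on each side of the limit. Genes outside this rule were named after their values were seen. Pooled ratios use reads, with exact 95% intervals that cover counting error only, and a floor of 3 counts. The ratios and intervals make no allowance for the selection, which took genes with low dsEGFP and high dsUsh counts and so leans towards high ratios. RefSeq served for names and gene order, and promoters and proteins of the genes were not used here.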

Additional observations from a re-analysis of the deposited data

How the results depend on the processing

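With any single library left out, which can only add genes, 61 to 71 genes met the limits. Of other limits, a dsEGFP ceiling of 1 left 13 genes, which at this depth demands at most 1 read, and a dsUsh floor of 50 left 32. Of the marker lists, 2 genes entered with a dsEGFP ceiling of 5 (PGRP-LB and wupA), 1 with a dsUsh floor of 10 (mex1), and 0 to 2 with a library left out. After Ush depletion 1567 genes passed, against 2601 with the replicate block and 1008 to 1373 with a library left out (lowest without dsUsh replicate 3). After dMi-2 depletion 574 passed, against 1187 with the replicate block, 1094 in DESeq2 and 292 to 528 with a library left out. After Ush-B depletion 1 gene passed. There were 0 with pseudocount 0.5, a mean of at least 20, upper-quartile factors, the replicate block, a term for replicates 1-2 against 3-4 or edgeR, 91 in DESeq2, and 0 to 4 with a library left out (4 without control replicate 1). The cause was not tested. Among the 61 genes, 4 or 5 were tested in each of 15 alternatives after Ush-B depletion and 58 without a filter, with 0 calls. With a mean of at least 20 none of them was left, and DESeq2 gave none of them an adjusted p. Of the 5 tested, CG11672 had log2 fold changes of -0.079 (without control replicate 3) to 0.44 and CG43291 of -0.21 (without control replicate 2) to 1.08 with a library left out. In the Ush-B table the numbers paired the libraries only in part. Same-numbered deviations correlated at 0.557 and 0.660 for replicates 1 and 2, and at -0.049 and 0.137 for replicates 3 and 4. dsUsh-B library 3 correlated at 0.762 with control 4, and dsUsh-B library 4 at 0.516 with control 3. The replicate block of that table followed the numbers, so its results carry this mismatch. Most of the 61 genes had at most 3 reads over all 3 dsEGFP libraries, so their level in control cells is known only within counting error.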
